A study of Mus musculus with 5 samples.

Results

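Genes of the Fanconi anemia and homologous recombination pathways were compared between the CD11A- and CD11A+ subfractions of mouse HSCs. The list held 35 genes, chosen by name, and 34 of them had a probeset of their own among the 18193 genes measured. Xrcc2 had none and was not analysed here. Both groups were sorted from crushed, KIT-enriched bone marrow of male C57/Bl6 mice as cells without lineage markers, FLK2 or CD34 that carried KIT, SCA-1, CD27, CD150 and EPCR, and they were separated by surface CD11A, an integrin chain encoded by Itgal. There were 3 arrays of CD11A- and 2 of CD11A+ HSCs, each made from 1011 to 2293 double-sorted cells of 1 to 2 mice. On day A, from mice aged 8 to 12 weeks, CD11A- replicate 2 was sorted together with CD11A+ replicate 1. Day B, with mice aged 10 weeks, gave CD11A- replicate 3 together with CD11A+ replicate 2. CD11A- replicate 1, from mice aged 6 weeks, had no CD11A+ partner on its day C. The labels do not say whether arrays sorted on 1 day came from the same animals.

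The Fanconi pathway repairs crosslinks that bind both DNA strands together and stall replication forks. A core complex carries the ubiquitin ligase FANCL to the lesion, where it marks the FANCD2-FANCI pair, and nucleases then unhook the crosslink. The resulting break is mended by homologous recombination, in which BRCA1, BRCA2 and their partners act on single-stranded DNA so that the sister chromatid can be copied. Because a sister is present only after replication, several of these genes are transcribed mainly in cycling cells, and loss of the pathway is known for bone marrow failure.

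The promoters of a few members are shown first, since E2F factors switch on genes at the entry to S phase and the members can be read against them. RefSeq promoters, on GRCm38.p6, run from 250 bases before to 50 after a start and were given for 29 of the 34 members, with no entry for Fancd2, Rad54b, Nbn, Rad50 and Exo1. They were searched on both strands for an E2F word (TTTGGCGC, TTTGCCGC, TTTCGCGC or TTTCCCGC), inside which neither other motif searched can lie. The word stood in 5 of 29 members (17.2%), in 3.8% of all genes on the array with a promoter and in 13 of 30 genes of DNA replication (43.3%). Each line below is a stretch of 60 bases, 5′ to 3′ on the strand of the gene, with the E2F word or its reverse complement in capitals.
Rad51c, first start, chr11:87404462-87404521, minus strand: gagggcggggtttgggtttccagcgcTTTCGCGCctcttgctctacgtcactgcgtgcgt
Rad51c, other start, chr11:87404926-87404985, minus strand: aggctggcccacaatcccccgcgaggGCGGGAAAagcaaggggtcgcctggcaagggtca
Fancg, chr4:43010320-43010379, minus strand: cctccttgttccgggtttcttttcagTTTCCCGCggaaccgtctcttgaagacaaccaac
Bard1, chr1:71103148-71103207, minus strand: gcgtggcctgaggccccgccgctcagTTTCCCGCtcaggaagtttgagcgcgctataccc
Brca2, chr5:150522427-150522486, plus strand: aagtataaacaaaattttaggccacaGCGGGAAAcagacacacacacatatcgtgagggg
Chek2, chr5:110839805-110839864, plus strand: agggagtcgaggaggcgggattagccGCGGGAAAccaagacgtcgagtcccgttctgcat

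Rad51c was the only one of these 5 genes with a word in 2 listed promoters, at positions 12 (first start) and -5 (other start). It was also the only one within 20 bases of a start. The start called first is first only in the listing and lies downstream of the other start. In the other genes the word began at -52 (Fancg), -209 (Bard1), -168 (Brca2) and -152 (Chek2). The CHR element of mitotic genes, TTTGAA, stood in 2 of 29 members (6.9%, Bard1 and Eme1), in 15.7% of genes on the array and in 22 of 28 mitosis genes (78.6%). CCAAT stood in 19 of 29 members (65.5%) and in 42.0% of genes on the array. A match is only a string of letters, and the factors were not measured.

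Of the 34 members, 29 had a higher mean in CD11A+ HSCs, where 48.3% of all genes did. The median log2 difference, CD11A+ minus CD11A-, was 0.31 over the members and -0.01 over all genes. The difference was above 1 log2 unit in 9 members, against 1.24% of all genes. No member passed an adjusted p of 0.05 from limma, nor did any other gene (0%), while 270 genes were higher and 651 lower at an unadjusted p under 0.05. At that unadjusted threshold 5 members were higher (1.48% of all genes) and 0 were lower (3.58%). The CD11A+ values both exceeded all CD11A- values in 5 members (8.56% of all genes), called separated below, and were both under them in 0 (10.4%).

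Much of this came from 1 array. Of the 5 arrays, CD11A+ replicate 1 gave the highest value in 28 members, against 27.2% of all genes. Without it, 13 of 34 members were higher and the median difference was -0.04, and without CD11A+ replicate 2 the median was 0.96. On day A 31 members were higher in CD11A+ HSCs (51.1% of all genes), with a median of 0.63. On day B the number was 21 (45%) and the median 0.13. The members higher on both days numbered 19 (25.3% of all genes), and in 31 the difference was larger on day A than on day B (53.2%).

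**Figure D1:**
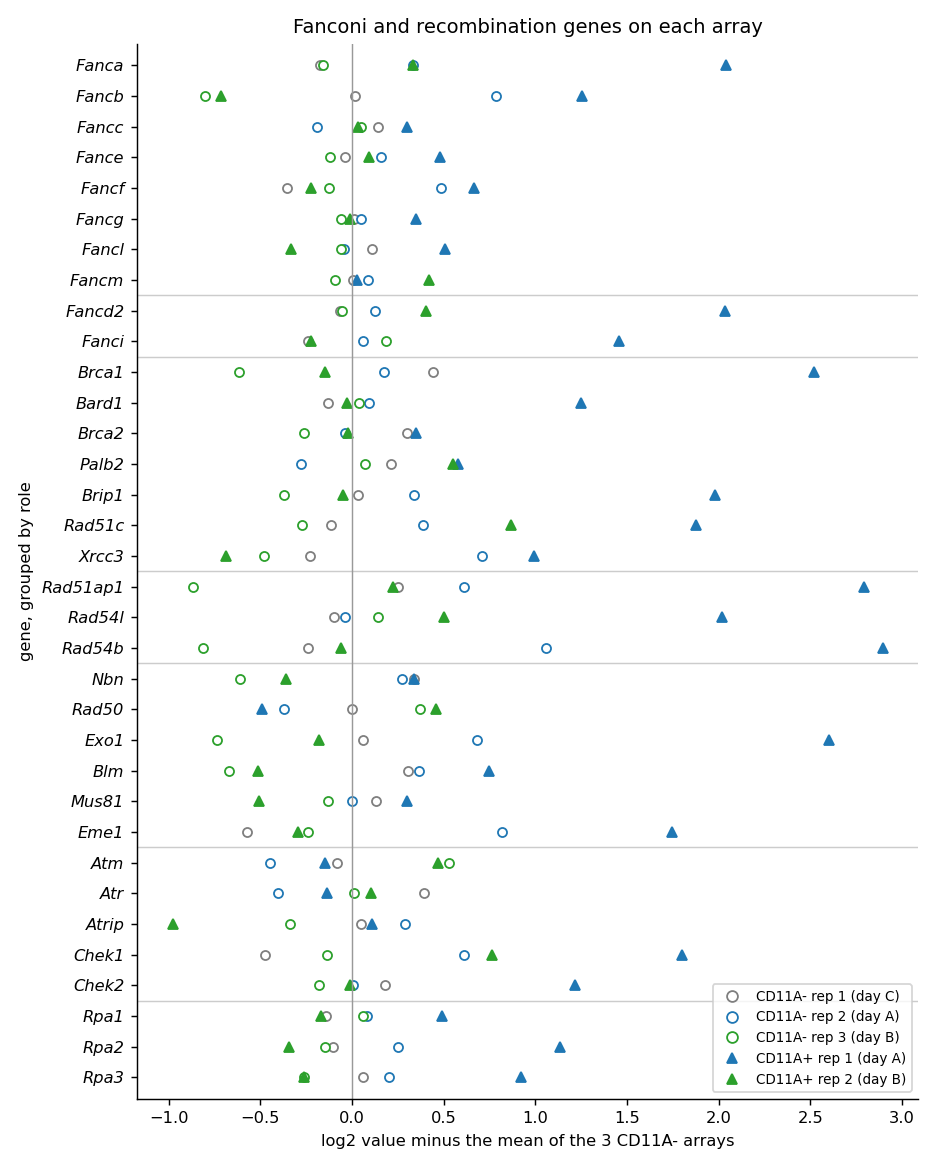
Log2 value of each of 34 members on each array (x axis, minus the mean of the 3 CD11A- arrays), grouped by role along the y axis. Open circles are CD11A- and filled triangles CD11A+ arrays, coloured by sort day, and CD11A+ replicate 1 lies furthest right in 28 genes.

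The libraries differed in more than CD11A. Itgal read 5.15, 5.43 and 5.27 in CD11A- and 8.49 and 5.67 in CD11A+ replicates 1 and 2. Neutrophil granule genes were higher in CD11A+ HSCs in 8 of 11, and their mean log2 value was 5.67 to 7.97 on the CD11A- arrays and 6.14 and 9.12 on the CD11A+ arrays. The day A arrays carried the most of these transcripts in each subfraction, 7.97 and 9.12. Macrophage genes were higher in 7 of 9, with array means of 5.99 to 6.74 and 6.91 to 7.18. Erythroid and lymphoid genes had median differences of -0.02 and 0.05. Of 9 genes known as high in HSCs, 8 were lower in CD11A+ HSCs, and Cd34 and Flt3, whose proteins the gate selects against, had differences of 1.01 and 0.87. The 3′ minus 5′ difference of the Gapdh control probesets was lowest on CD11A+ replicate 1, at 1.91 against 2.22 to 2.80 on the others. The part of these in the results was not tested. In bulk RNA, fewer cells with a transcript and less of it per cell cannot be told apart.

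Among the Fanconi core complex, whose proteins hold and activate FANCL, all 8 genes had a higher mean in CD11A+ HSCs and none passed the test. Fanca differed most. It read 5.60, 6.11 and 5.62 on CD11A- replicates 1, 2 and 3, and 7.82 and 6.11 on CD11A+ replicates 1 and 2. One CD11A+ array stood alone and the other tied with the highest CD11A- array. The log2 difference was 1.19 (standard error 0.51, unadjusted p = 0.058 and adjusted p = 1.00 from limma), and 0.33 without CD11A+ replicate 1.

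The other 7 core genes, including Fancl, the ligase itself, and Fancm, the DNA translocase that anchors the complex, had differences of 0.09 to 0.29, each less than 1.5 times its standard error. Fancb had the widest spread of these. It read 7.02, 7.79 and 6.20 in CD11A- and 8.26 and 6.29 in CD11A+ HSCs, so the groups overlapped. Fancm was 1 of 4 members, with Rad50, Atm and Atr, that were higher on CD11A+ replicate 2 than on replicate 1, at 6.49 and 6.10 against 5.98 to 6.16 in CD11A- HSCs. Over the 8 genes the median difference was 0.22.

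Fancd2, the substrate of the core complex, was separated between the subfractions. It read 5.05, 5.24 and 5.06 in CD11A- and 7.15 and 5.52 in CD11A+ HSCs, with means of 5.12 ± 0.11 (SD, n = 3) and 6.33 ± 1.15 (SD, n = 2). Both CD11A+ arrays lay above the others, though the nearest were 0.28 apart. The difference was 1.22 (standard error 0.47, unadjusted p = 0.040 and adjusted p = 1.00 from limma), with 1.91 on day A and 0.46 on day B. Its 3 dimmer probesets gave 1.15, 0.16 and -0.04.

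Fanci, the partner of Fancd2, did not follow it on day B. It read 6.04, 6.34 and 6.47 in CD11A- and 7.74 and 6.06 in CD11A+ HSCs. Its difference was 0.62 (standard error 0.49), with 1.40 on day A and -0.41 on day B.

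All 7 mediators of recombination, the BRCA genes and their partners, had a higher mean in CD11A+ HSCs, and their median difference was 0.61 (1.16 on day A and 0.24 on day B). Rad51c, which acts in recombination and in crosslink repair, had the smallest p of all members. It read 5.88, 6.38 and 5.72 in CD11A- and 7.87 and 6.86 in CD11A+ HSCs, with means of 5.99 ± 0.34 (SD, n = 3) and 7.36 ± 0.71 (SD, n = 2). Both CD11A+ arrays were higher than any CD11A- array, by at least 0.48. The difference was 1.37 (standard error 0.36, 2.59-fold, unadjusted p = 0.0095 and adjusted p = 1.00 from limma), with 1.49 on day A and 1.14 on day B. It was 0.87 without CD11A+ replicate 1 and 1.06 without both day A arrays, and its other, dimmer probeset gave 0.53 (0.61 and 0.68 on the 2 days). Rad51c has an E2F word at both listed starts, and a link of the word to these values was not tested.

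Palb2, which bridges BRCA1 and BRCA2, was the member whose CD11A+ arrays agreed most closely. It read 7.24, 6.75 and 7.10 in CD11A- and 7.61 and 7.58 in CD11A+ HSCs. Both CD11A+ arrays lay above the others and only 0.03 apart. The difference was 0.56 (standard error 0.21, unadjusted p = 0.037 and adjusted p = 1.00 from limma), and 0.55 without CD11A+ replicate 1. Palb2 had no other probeset.

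Brca1, the ubiquitin ligase that steers breaks to recombination, had the largest difference of all members on day A, 2.35. Its dimmer probesets gave only 0.71, 0.52 and 0.51 on that day. At the brightest, Brca1 read 7.36, 7.09 and 6.30 in CD11A- and 9.44 and 6.77 in CD11A+ HSCs. CD11A+ replicate 2 thus lay among the CD11A- arrays. Its partner Bard1 (3.84, 4.06 and 4.01 against 5.22 and 3.94) and the helicase Brip1 (4.21, 4.52 and 3.81 against 6.16 and 4.13) had the same shape. The differences over all arrays were 1.19 for Brca1, 0.61 for Bard1 and 0.97 for Brip1, and without CD11A+ replicate 1 they were -0.15, -0.03 and -0.05. Those last values set CD11A+ replicate 2 against CD11A- arrays of every sort day. Against its day B partner alone, that array differed by 0.47 for Brca1, -0.07 for Bard1 and 0.32 for Brip1. Brca2, the mediator that PALB2 brings to breaks, read 8.04, 7.70 and 7.48 against 8.09 and 7.72, and its difference of 0.16 was smaller than its standard error of 0.24. Xrcc3, which forms a complex with RAD51C, had 0.15 (standard error 0.58).

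**Figure D2:**
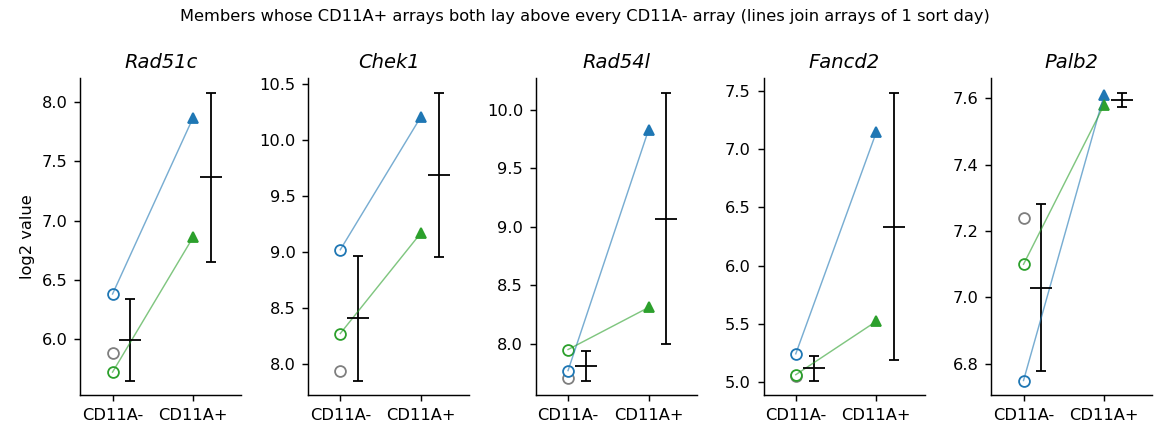
Log2 values (y axis, a separate scale for each gene) of the 5 separated members. Circles are CD11A- and triangles CD11A+ arrays, blue for day A, green for day B and grey for day C, lines join arrays of 1 sort day, and the bars beside them are mean ± SD. In Palb2 the CD11A+ arrays nearly coincide, and in the other 4 genes they lie over 1 log2 unit apart.

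The genes that aid strand invasion had the largest median difference of any role, 1.42 over 3 genes, with 2.06 on day A and 0.75 on day B. Rad51ap1, a DNA-binding protein, differed most of all members. It read 7.98, 8.34 and 6.86 in CD11A- and 10.52 and 7.95 in CD11A+ HSCs, and CD11A+ replicate 2 fell below 2 of the 3 CD11A- arrays. The difference was 1.51 (standard error 0.81, unadjusted p = 0.11 and adjusted p = 1.00 from limma), with 2.18 on day A and 1.09 on day B, and it was 0.22 without CD11A+ replicate 1. Its 3 other probesets gave 1.07, 1.35 and 2.00. Those with 1.35 and 2.00 were separated, with 0.57 and 1.42 on day B, and the one with 1.07 was not, with 0.00 on day B.

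Rad54l, a motor protein that moves along DNA during strand invasion, was separated. It read 7.71, 7.77 and 7.95 in CD11A- and 9.83 and 8.31 in CD11A+ HSCs. The difference was 1.26 (standard error 0.44, unadjusted p = 0.029 and adjusted p = 1.00 from limma), with 2.06 on day A and 0.36 on day B. Its dimmer probesets gave 1.412, 1.015 and 0.463, and only the first of them was separated. On day B they gave 0.63, -0.23 and -0.37. The related Rad54b overlapped between the groups, with 4.71, 6.01 and 4.14 against 7.85 and 4.89. Its difference of 1.42 (standard error 0.95) was -0.06 without CD11A+ replicate 1, and 0.75 within day B.

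Of the 6 genes acting at break ends and on joint molecules, the mean was above that of CD11A- HSCs in 3 and below it in 3, with a median difference of 0.05. Exo1, the exonuclease that resects ends, read 5.99, 6.61 and 5.19 against 8.53 and 5.75. Its difference of 1.21 (standard error 0.85) was -0.18 without CD11A+ replicate 1, and 0.56 within day B. Its dimmer probesets gave 0.91, separated, and 0.24, not separated. Eme1, a nuclease subunit, read 5.05, 6.44 and 5.38 against 7.37 and 5.33, with a difference of 0.73 (standard error 0.68). Its catalytic partner Mus81 read 7.74, 7.61 and 7.48 against 7.91 and 7.10, with -0.10. The end sensors Nbn and Rad50 had differences of -0.01 and -0.02, with standard errors of 0.37 and 0.36, and the helicase Blm had 0.12 (standard error 0.48).

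Among the checkpoint kinases, Chek1, which ATR activates at stalled forks, was separated. It read 7.93, 9.02 and 8.27 in CD11A- and 10.21 and 9.17 in CD11A+ HSCs, with 0.15 between the nearest arrays of the 2 groups. The difference was 1.28 (standard error 0.44, unadjusted p = 0.026 and adjusted p = 1.00 from limma), with 1.19 on day A and 0.90 on day B, and it was 0.76 without CD11A+ replicate 1. Of its 4 dimmer probesets, 3 gave 0.38 to 1.29 and 1 gave -0.10.

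Chek2, the kinase downstream of ATM, read 8.77, 8.60 and 8.41 against 9.81 and 8.58, so its 0.60 rested mainly on CD11A+ replicate 1. The difference was -0.01 without that array and 0.17 within day B. The kinases at the head of these cascades differed little at their brightest probesets. Atm had 0.16 (standard error 0.35) and Atr -0.02 (standard error 0.28). The dimmer probesets gave -0.75 and -0.19 for Atr and 0.19 for Atm. Atrip, which brings ATR to single-stranded DNA, had the lowest difference of all members, -0.44 (standard error 0.37). It read 7.13, 7.37 and 6.74 against 7.19 and 6.10, and the groups overlapped.

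Replication protein A coats single-stranded DNA. Its subunits Rpa1, Rpa2 and Rpa3 had differences of 0.16, 0.39 and 0.33. All 3 were higher in CD11A+ HSCs on day A, by 0.41, 0.88 and 0.72, and none on day B, with -0.23, -0.20 and 0.00. Of the 5 separated members, exact permutation over the 5 arrays (two-sided) gave p = 0.1, the smallest these groups allow, for Rad51c, Fancd2, Palb2 and Rad54l, and p = 0.2 for Chek1.

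The members were split by their known link to the cell cycle. The split was made with earlier results of these data known, so its contrast is a description and not a test. The 16 expressed mainly in cycling cells, among them Brca1, Rad51ap1, Exo1, Fancd2 and Chek1, all had the higher mean in the CD11A+ subfraction, with a median of 1.08 (1.52 on day A and 0.34 on day B). On day B 12 of these stayed positive, and 8 had a difference above 1. The other 18, among them Rad51c, Palb2, Atm and most of the core complex, were higher in 13, with a median of 0.16 (0.30 on day A and 0.02 on day B). Rad51c was the only one of the 18 above 1. Without CD11A+ replicate 1 the medians were -0.06 and -0.01. The E2F word stood in 2 of 13 promoters of the first set (15.4%) and 3 of 16 of the second (18.8%).

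**Figure D3:**
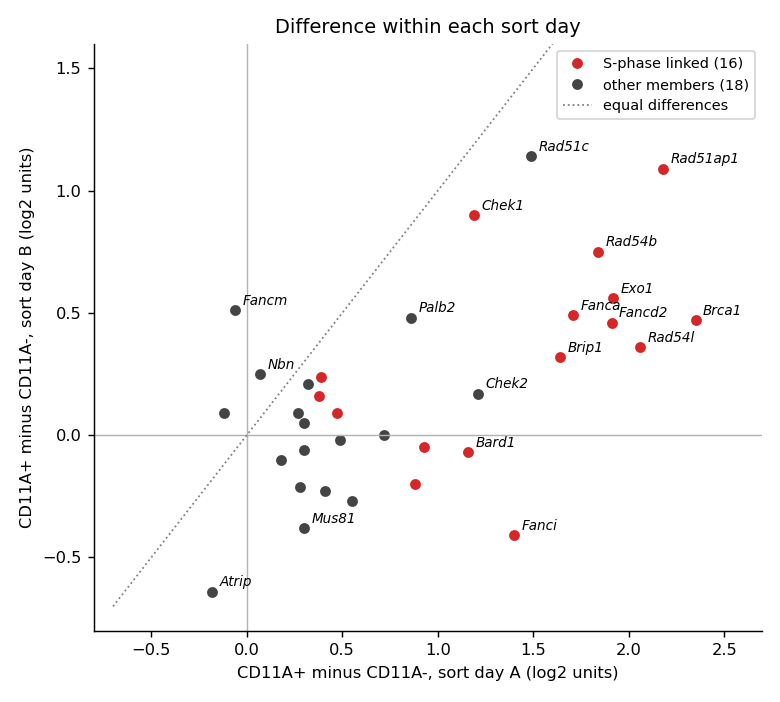
CD11A+ minus CD11A- log2 difference of each member on sort day A (x axis) and day B (y axis), red for the 16 S-phase linked members and grey for the 18 others. Points below the dotted line had the larger difference on day A, 31 of 34, and Rad51c, Chek1 and Rad51ap1 reached 0.90 or more on both days.

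The cycling-linked members also varied among the CD11A- arrays. Their SD over those 3 arrays had a median of 0.45, against 0.24 for the other members and 0.21 for all genes. CD11A- replicate 2 was the highest of the CD11A- arrays in 12 of the 16, and exceeded CD11A- replicate 3 by a median of 0.73. CD11A+ replicate 2 minus CD11A- replicate 2, which were sorted on different days, had a median of -0.35.

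Genes of DNA replication showed the same order of arrays. The mean of the 16 members was 6.24 on CD11A- replicate 3, 6.54 on CD11A- replicate 1, 6.56 on CD11A+ replicate 2, 6.97 on CD11A- replicate 2 and 8.38 on CD11A+ replicate 1. The mean of 36 replication genes was 8.39, 8.66, 8.74, 9.19 and 10.33 on the same arrays. Only CD11A+ replicate 1 stood clear of the CD11A- range in both. Of the replication genes, 35 had the higher mean in the CD11A+ subfraction, and their median was 0.81 (1.06 on day A and 0.40 on day B), led by Rrm2, a subunit of ribonucleotide reductase, at 1.80. All 33 mitosis genes were higher, with a median of 1.28 (1.93 and 0.63), led by the checkpoint kinase Bub1 at 2.18. Their mean was 7.06, 7.62 and 6.00 in CD11A- and 9.50 and 6.74 in CD11A+ HSCs. The neutrophil granule genes had the same order of arrays as the replication genes, and their part in these results was not tested.

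**Figure D4:**
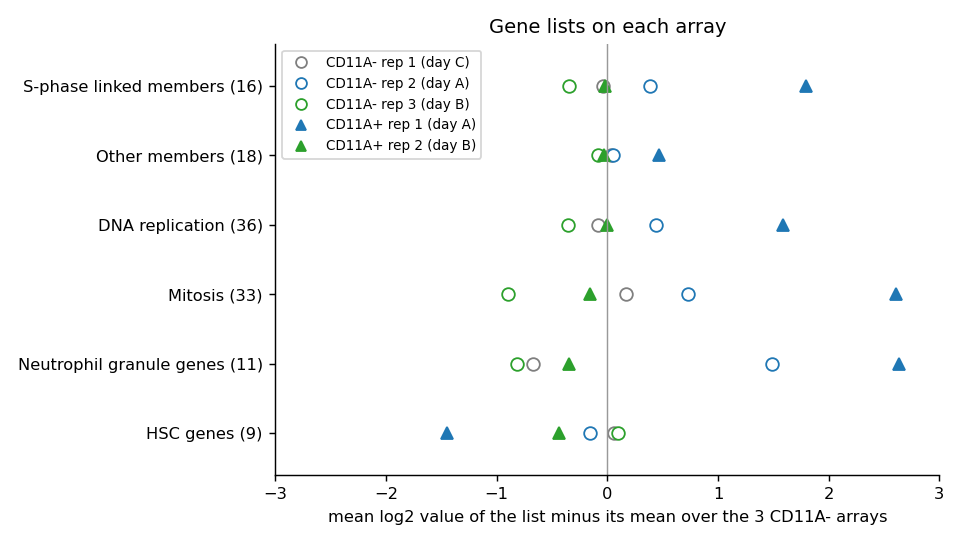
Mean log2 value of each gene list on each array (x axis, minus the list's mean over the 3 CD11A- arrays), with the number of genes in brackets. Circles are CD11A- and triangles CD11A+ arrays, coloured by sort day, and of the 6 lists plotted, CD11A+ replicate 1 lies furthest right in 5 and furthest left in the HSC genes.

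Other genes of the same pathways were read on the same arrays. Of 49 listed, 46 were measured. None passed the adjusted threshold, 30 were higher in CD11A+ HSCs, and the median was 0.23 (0.37 on day A and 0.07 on day B). The largest differences were in Fignl1, an ATPase of recombination, at 1.49, in Clspn, the adaptor through which ATR activates CHEK1, at 1.25, and in Rad18, the ligase that marks PCNA, at 1.02. In 4 of the 46 the CD11A+ values both exceeded all CD11A- values, near the 8.56% of all genes. In 1 both were under them (10.4% of all genes).

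Repair that does not use a sister chromatid had medians over all 5 arrays near that of all genes. End joining had 0.04 over 9 genes, 5 of them higher. Nucleotide excision repair had -0.02 over 15 genes, 6 of them higher, and base excision and mismatch repair had -0.01 over 15, 7 of them higher. Ung, which removes uracil from DNA, and Msh6, a mismatch sensor, stood out from the last list. Ung read 8.36, 8.65 and 7.70 against 10.23 and 8.97, a difference of 1.36, and Msh6 read 10.27, 10.28 and 10.12 against 10.95 and 10.82, a difference of 0.66. Both were separated on all arrays, and in Msh6 the days agreed (0.67 and 0.70). In that list 4 of 15 genes were separated (8.56% of all genes), with 1 of 9 in end joining and 0 in nucleotide excision repair. The median of that list was 0.28 on day A and 0.06 on day B, against 0.02 and -0.03 over all genes.

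**Figure D5:**
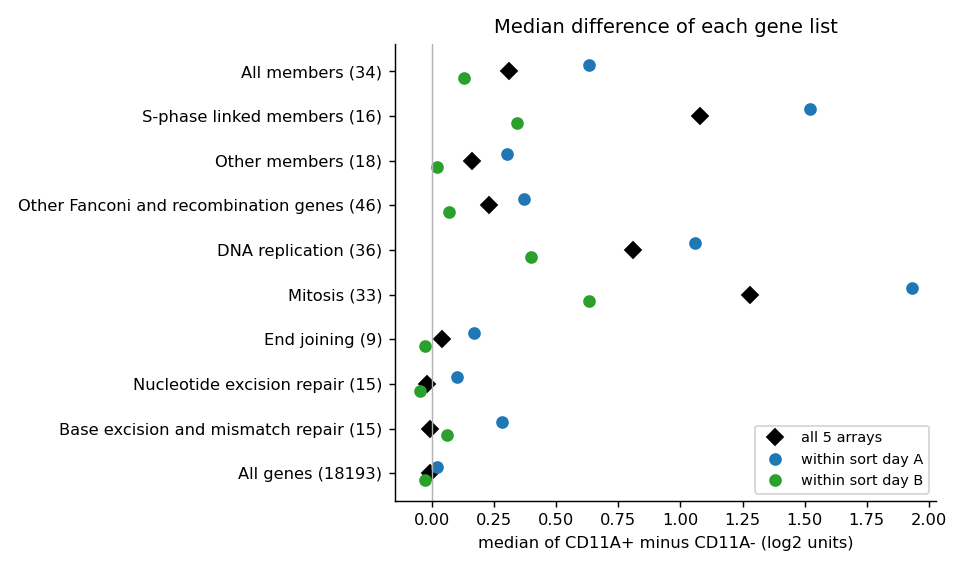
Median CD11A+ minus CD11A- log2 difference of each gene list (x axis), over all 5 arrays (diamonds) and within sort days A (blue) and B (green), with the number of genes in brackets. Over all 5 arrays the S-phase linked members, DNA replication and mitosis lie furthest right. End joining, nucleotide excision repair, and base excision and mismatch repair lie near all genes there.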

How the data were processed

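RNA of double-sorted CD11A- and CD11A+ HSCs was amplified in 2 cycles and hybridised to Affymetrix mouse arrays. Per probeset, the deposited tables hold log2 values, and the submitters' processing notes name RMA as the tool. The study's methods describe a normalization to a large panel of public arrays on the Gene Expression Commons. Whether the deposited values went through it, and which arrays RMA took together, is not given in the sources used here. A table of 45 columns was used, of which 40 belong to no sample of this series and were not used, so other populations were not compared. A second deposited table had 0 differing values. The number of arrays limits the precision, and p-values measure the spread between these samples. That spread includes shifts between sort days, for which the main fit has no term.

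Of 45101 probesets, 64 controls were left out. The platform annotation gave 1 gene for 34945 of the rest, several for 932 and none for 9160. Each gene was read at its probeset with the highest mean. The 45037 probesets were fitted with limma 3.58.1 (lmFit and eBayes) in R 4.3.3, with Benjamini-Hochberg adjustment over all of them. The fit was tested on simulated data.

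The members and lists were chosen with earlier results of these data known, and the lists come from general knowledge, as does the split by link to S phase. Named are all members and, of other lists, up to 4 genes with the largest differences. Lists are described by counts and medians beside all genes, with no test. Sort days come from the labels. Replicate numbers cross them and do not pair the arrays. The alternatives were a block for sort day (fixed, then random), a replicate block, each array left out, the second table, median centring, quantile normalization, averaging the probesets of a gene, leaving out dim probesets, an unadjusted threshold and an intensity trend. The filter on dim probesets left out Bard1, Brip1 and Rad54b. Leaving out both arrays of a sort day was added after seeing the data.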

Additional observations from a re-analysis of the deposited data

Results flagged for a closer look

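In 13 members the difference had opposite signs on the sort days, as it did in 44.2% of all genes. Each sign rests on 1 array a subfraction, and the difference between the days was not tested. In 11 of them the CD11A+ array exceeded its partner on day A and fell below it on day B. In the core complex these were Fancc (0.49 and -0.02), Fancf (0.18 and -0.10) and Fancl (0.55 and -0.27). Fanci had 1.40 and -0.41, Bard1 1.16 and -0.07, and Xrcc3 0.28 and -0.21. The nuclease subunits Mus81 and Eme1 had 0.30 and -0.38, and 0.93 and -0.05. Atm had 0.30 and -0.06, Rpa1 0.41 and -0.23, and Rpa2 0.88 and -0.20. The reverse held for Fancm (-0.06 on day A and 0.51 on day B) and Rad50 (-0.12 and 0.09).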

How the results depend on the processing

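No member was called by limma in any fit. An unadjusted p under 0.05 in the main fit gave 5. With sort day as a fixed block, standard errors fell in some members and rose in others. In Rad51ap1 the difference was 1.64 with a standard error of 0.31, against 0.81 in the main fit. In Fancc the standard error was 0.23, against 0.20. The median and the counts rest on CD11A+ replicate 1. With each array left out in turn, 13 to 31 members were higher, the median was -0.04 to 0.96, and 5 to 28 members were separated. Without day A, chosen after seeing the data, 18 were higher, the median was 0.01 and 10 were separated. Without day B, also chosen then, the median was 0.77 and 28 were separated. Fewer arrays make separation easier to reach, and without day A, day B or either CD11A+ array only 1 CD11A+ array has to exceed the rest. The share of all genes separated in these settings is not given here. Their counts of separated members therefore cannot be read against the 5 separated over all arrays. Over all arrays, the mean of a gene's probesets separated 8. With replicate number as a block (the replicate block, over 4 arrays) 27 were higher with a median of 0.27. Deviations from the group means correlated at 0.56 and 0.59 between arrays of 1 sort day. Between arrays numbered 1 and 2 they correlated at 0.12 and -0.56. The 2 CD11A+ arrays deviate from their mean by equal and opposite amounts, so the -0.56 is the 0.56 reversed. These values are therefore not separate checks of the pairing. The cause of each reversal was not tested.

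Signs turned with arrays left out in the following differences, given as lowest to highest. They were -0.71 to 1.26 for Fancb, -0.23 to 0.66 for Fancf, -0.01 to 0.35 for Fancg, -0.33 to 0.51 for Fancl and -0.22 to 1.46 for Fanci. They were -0.15 to 2.52 for Brca1, -0.03 to 1.25 for Bard1, -0.02 to 0.35 for Brca2, -0.05 to 1.98 for Brip1, -0.69 to 0.99 for Xrcc3 and -0.06 to 2.90 for Rad54b. They were -0.36 to 0.34 for Nbn, -0.49 to 0.46 for Rad50, -0.18 to 2.60 for Exo1, -0.51 to 0.75 for Blm, -0.51 to 0.30 for Mus81 and -0.29 to 1.75 for Eme1. They were -0.15 to 0.47 for Atm, -0.22 to 0.18 for Atr, -0.98 to 0.11 for Atrip, -0.01 to 1.22 for Chek2, -0.17 to 0.49 for Rpa1, -0.35 to 1.13 for Rpa2 and -0.26 to 0.92 for Rpa3.

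List medians ranged likewise from -0.03 to 1.25 for the mediators, -0.33 to 0.54 for break ends, -0.07 to 0.42 for checkpoint kinases and -0.26 to 0.92 for replication protein A. They ranged from -0.06 to 1.89 for the S-phase linked members, -0.01 to 0.41 for the others and -0.04 to 0.54 for other pathway genes. They ranged from -0.31 to 0.26 for end joining, -0.05 to 0.30 for base excision and mismatch repair, -0.13 to 2.58 for mitosis, -0.20 to 3.86 for neutrophil genes and -0.07 to 0.14 for lymphoid genes. Nucleotide excision repair gave -0.14 without CD11A+ replicate 1 and 0.13 without CD11A+ replicate 2. Without CD11A- replicate 1, the marker genes of the gate gave -0.12 (0.10 over all arrays) and erythroid genes 0.17 (-0.02 over all arrays).

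Without day A the reversed differences were Fancb -0.32, Fancc -0.07, Fancl -0.35, Fanci -0.20, Brca1 -0.06, Brca2 -0.04, Xrcc3 -0.34, Rad50 0.28, Blm -0.33, Chek2 -0.01, Rpa1 -0.13, Rpa2 -0.22 and Rpa3 -0.16. The medians were -0.16 for replication protein A, -0.04 for members without the S-phase link and -0.02 for other pathway genes. Without day B they were Fancm -0.02, Nbn 0.04, Mus81 0.23 and the base excision and mismatch repair median 0.29. The mean of probesets gave Fancf -0.02, Fancm -0.12 and Rad50 0.22. Quantile normalization gave Nbn 0.04, Rad50 0.03 and Atr 0.04. The replicate block gave Fancb -0.13, Xrcc3 -0.09, Rad50 0.17 and Blm -0.22. Sort day gave Nbn 0.16 and Atr 0.18 as a fixed block, and 0.07 for both as a random block.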
